A study of Rattus norvegicus with 61 samples.

Results

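The striatum of male Sprague-Dawley rats was compared between a medium loading of 4-OH-PCB52 and sham, in the 15 of 16 medium and sham striatal libraries that were rich in projection neurons. The libraries were chosen by the measured level of Ppp1r1b, at 500 CPM or more of the raw library total (raw CPM, reads scaled to a common total). Ppp1r1b encodes DARPP-32, the dopamine-regulated phosphatase inhibitor of striatal projection neurons. This kept all 8 medium libraries and 7 of 8 sham libraries, out of 30 striatal libraries and 61 libraries in the series. Rats received a polymer implant under the skin of the back on postnatal day 28 and carried it for 28 days. The implant held no compound in sham rats and 5% of 4-OH-PCB52 in medium rats, so the surgery and the polymer were shared by both groups. The low (1%, 5 libraries kept) and high (10%, 7 kept) loadings enter only where stated. The labels give 1 tissue punch library per numbered rat, from 4 cohorts bought 3 weeks apart, without saying which rat belonged to which cohort. Libraries are named here by group and rat number.

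4-OH-PCB52 is a product of the metabolism of PCB52, a polychlorinated biphenyl, and carries an added hydroxyl group. The striatum is the input station of the basal ganglia, and most of its neurons are GABAergic projection neurons. Those of the direct pathway carry the dopamine receptor D1 with tachykinin and dynorphin precursors, and those of the indirect pathway carry the dopamine receptor D2, an adenosine receptor (Adora2a) and the enkephalin precursor. A punch can also take in white matter, vessels, cortex, the septum, the pallidum or the choroid plexus of the lateral ventricle, whose transcripts then appear in the library. In such bulk libraries, fewer cells of a type and less RNA per cell cannot be told apart.

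Ppp1r1b stood at 2827 raw CPM in sham 34, the lowest sham library kept, and at 4134 in sham 18, the highest. In medium libraries it ran from 3083 in medium 40 to 5560 in medium 8. The sham library left out, sham 17, held 212 raw CPM, and low 20 and high 13 were left out at 218 and 269. The library nearest above the threshold was high 44 at 1389 raw CPM. No library lay between 269 and 1389, as the plot of Ppp1r1b by library shows, so a threshold of 1000 kept the same libraries. These values chose the libraries and are given as a description.

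**Figure D1:**
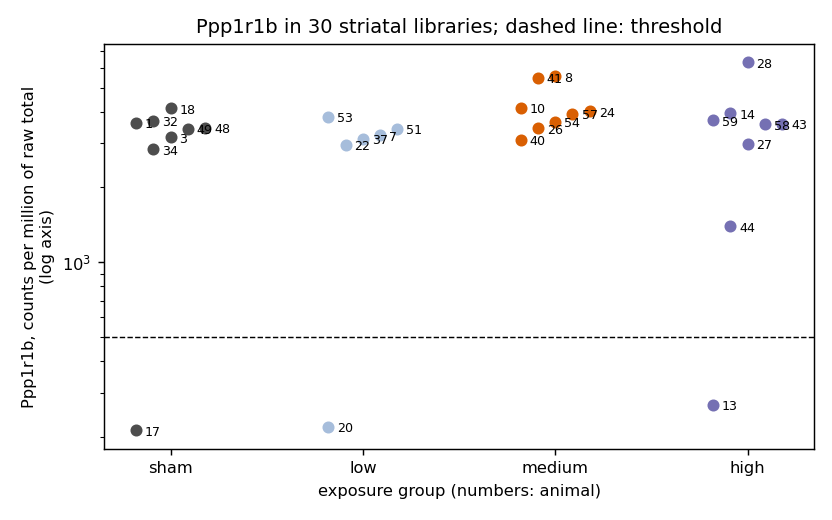
Ppp1r1b in CPM of the raw library total (log axis) for each of the 30 striatal libraries by exposure group, numbered by rat. Sham 17, low 20 and high 13 lie below the dashed threshold of 500, and every medium library lies at 3083 or above.

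Totals of the 15 libraries ran from 5850199 to 10944066 reads (median 6966188). Libraries correlated with each other at r = 0.899 to 0.987 (Pearson, log2 CPM across genes), and no pair held identical counts. The defining transcripts of projection neurons were abundant in both groups, in libraries that were kept for their level of Ppp1r1b. Drd1 (dopamine receptor D1) averaged 354 ± 82 CPM in sham and 402 ± 83 in medium (SD, n = 7 and 8), and Drd2 (dopamine receptor D2) 315 ± 39 and 361 ± 44. CPM from here on use library sizes adjusted by the trimmed mean of M values (TMM). Fold changes are log2 values of medium over sham with their standard error, from edgeR's quasi-likelihood fit of all 27 libraries past the threshold, over 12243 genes.

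No gene passed the test between medium and sham. edgeR called 0 of 12243 genes (0%) at an adjusted p of 0.05, with a smallest adjusted p of 0.906. At an unadjusted p under 0.05 there were 71 higher genes (0.58%) and 214 lower genes (1.75%), together 285 (2.33%). Evenly spread p-values would put about 612 genes under 0.05. DESeq2 called 2 genes, both lower, Frem3 and Ntng1 (adjusted p 0.0312 for each in DESeq2), and limma-voom with sample quality weights called 0 (318 higher and 360 lower at an unadjusted p under 0.05). Over all genes tested the median change was 0.01, with 55.1% of genes above 0 and 44.9% below.

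The genes that came lowest against sham were, for the most part, transcripts of sham 48. Of the 214 lower genes at an unadjusted p under 0.05, 149 (69.6%) had their highest sham value in sham 48, against 17.7% of all genes tested. Sham 34 was the highest sham library for 23 of them (10.7%, against 12.4% of all genes). Without sham 48, 86 of the 214 kept an unadjusted p under 0.05 and their median went from -0.65 to -0.42. Without sham 34 and sham 48, 43 of them kept it and the median was -0.33. Of the 71 higher genes, medium 24 was the highest medium library for 19 (26.8%, against 7.97% of all genes tested). Medium 26 was highest for 13 (18.3%, against 10.9%) and medium 41 for 18 (25.4%, against 29.4%). An unadjusted p under 0.05 was kept by 40 of the 71 without sham 34 and sham 48.

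Frem3 (307767), which encodes an extracellular matrix protein of the FRAS1 family, had the smallest p. In sham it ran from 0.674 through a median of 1.36 to 7.37 CPM in sham 34, with 4.87 in sham 48. In medium it ran from 0 in medium 57 through 0.288 to 0.843 CPM, which is 0 to 5 reads in a library. The groups overlapped only through sham 3. Frem3 differed by -2.82 ± 0.61 and by -1.64 without sham 34 and sham 48.

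Ntng1 (295382), which encodes netrin-G1, an axonal adhesion protein abundant in thalamic neurons, stood at 7.51 to 21.7 CPM in 6 sham libraries and at 92.0 in sham 48. The medium libraries lay between 4.38 and 9.32 CPM, with a median of 6.21. The fitted difference of -1.82 ± 0.41 went to -0.84 without sham 48 and to -0.56 without sham 34 and sham 48. Kcnip4 (259243), a subunit that modulates A-type potassium channels, lay between 11.3 and 18.2 CPM in 6 sham libraries and at 43.1 in sham 48, against 7.24 to 13.3 in medium. Its difference of -0.98 ± 0.23 went to -0.62 without sham 48. Medium values were thus low against most sham libraries for Kcnip4, and sham 48 added to the gap.

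Slc17a6 (84487), the vesicular glutamate transporter of subcortical neurons, was the extreme case. It stood at 168 CPM in sham 48 and 25.6 in sham 34, and at no more than 4.89 CPM in the other 5 sham libraries. Medium libraries ran from 0 through a median of 0.575 to 3.21 CPM. The groups overlapped, and the difference of -4.48 ± 1.11 went to -2.33 without sham 48 and -1.08 without sham 34 and sham 48. The noradrenaline receptor Adra1b (-2.19 ± 0.58), the endocytic adaptor Epn3 (-1.85 ± 0.51), the calcium-dependent membrane binding protein Cpne7 (-1.17 ± 0.32) and the nicotinic receptor subunit Chrna4 (-1.91 ± 0.53) were each highest in sham 48. Without sham 48 these went to -1.12, -0.75, -0.73 and -1.07 in the same order.

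Rbm11 (288321), a splicing regulator, did not depend on sham 48 in that way. It ran from 3.29 through 3.95 to 6.58 CPM in sham and from 0.674 through 2.72 to 3.33 CPM in medium, so the groups touched only at sham 32 and medium 10. The difference was -0.94 ± 0.25, and -0.81 to -1.03 when any 1 medium or sham library was left out.

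In 4 genes (0.0327% of those tested) the medium and sham libraries did not overlap, 1 higher (0.00817%) and 3 lower (0.0245%). These were picked for their separation, so their values are a description. Among 12243 genes some would separate 8 from 7 libraries by chance, and the count of 4 was not tested against that. Cebpg (25301), a bZIP transcription factor that pairs with other C/EBP and ATF family members, ran from 17.8 through 21.8 to 23.0 CPM in sham and from 23.2 through 25.4 to 30.4 CPM in medium. All 8 medium libraries thus lay above all 7 sham libraries, by a small margin. The difference was 0.28 ± 0.08, and it stayed between 0.25 and 0.30 with any 1 library left out.

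Men1 (29417), which encodes menin, a scaffold of histone methyltransferase complexes, ran from 72.4 through 76.7 to 81.8 CPM in sham and from 61.5 through 66.6 to 68.9 CPM in medium. Its spread within groups was small, 76.3 ± 3.5 in sham and 66.0 ± 2.7 CPM in medium (SD, n = 7 and 8), and the difference was -0.21 ± 0.06. Cdkn1a (114851), the cyclin-dependent kinase inhibitor p21, ran from 8.76 through 10.5 to 21.6 CPM in sham, highest in sham 48, and from 4.19 through 7.31 to 8.43 CPM in medium. The difference was -0.82 ± 0.22, and -0.58 without sham 34 and sham 48. Nrip3 (361625) was separated by less than the last digit given, with the lowest sham and the highest medium library both at 42.8 CPM, and its difference of -0.62 ± 0.22 went to -0.38 without sham 34 and sham 48 and to -0.28 in limma-voom.

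At the other loadings, which share these sham libraries, Cebpg stood 0.29 (low) and 0.23 (high) above sham, Men1 at -0.13 and -0.11, Cdkn1a at -0.26 and -0.59, and Nrip3 at -0.33 and -0.11. As the plot of the 4 genes shows, low 37 (22.8 CPM) and high 27 (20.8 CPM) lay below every medium library for Cebpg. For Men1 the low and high libraries ran from 65.5 to 75.3 CPM, across parts of both the medium and the sham range. In the cerebellum of the same rats (8 medium and 6 sham libraries), Cebpg stood at -0.01 ± 0.18, Men1 at -0.09 ± 0.12, Cdkn1a at -0.32 ± 0.45 and Nrip3 at 0.59 ± 0.33. edgeR called 0 of 12014 genes there (92 at an unadjusted p under 0.05), and the difference between the regions was not tested.

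**Figure D2:**
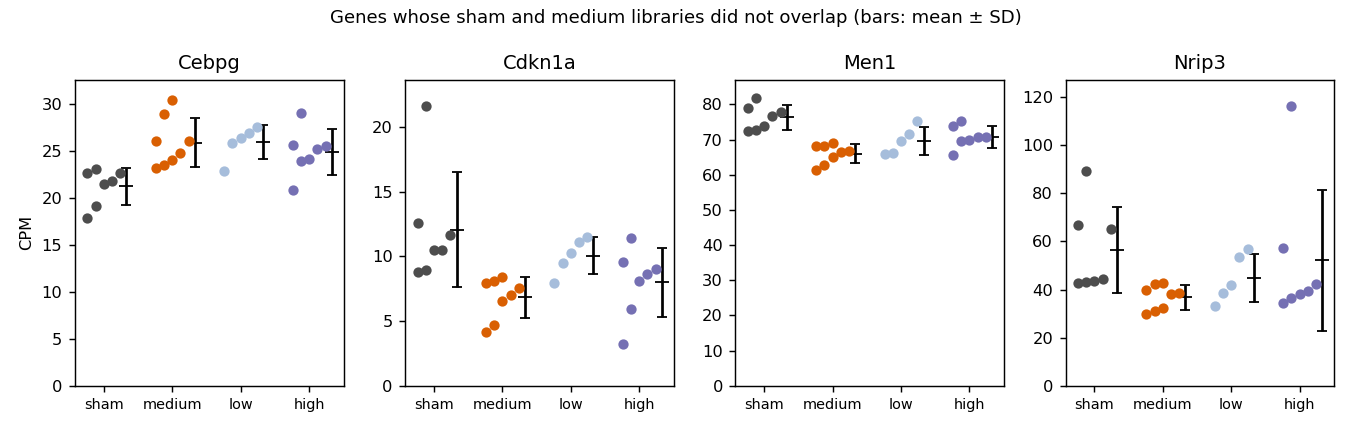
TMM-scaled CPM of Cebpg, Cdkn1a, Men1 and Nrip3 in each library of the sham, medium, low and high groups, with bars for mean ± SD. Every medium library of Cebpg (23.2 CPM or more) lies above every sham library (23.0 or less), and for Cdkn1a, Men1 and Nrip3 every medium library lies below every sham library.

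Of the higher genes with the smallest p, Vav1, a guanine exchange factor of blood and immune cells, ran from 3.11 through 3.61 to 4.01 CPM in sham and from 2.89 through 5.21 to 6.91 CPM in medium. All medium libraries except medium 40 lay above every sham library, and the difference was 0.51 ± 0.16. Stk17b, a death-associated protein kinase, ran from 9.59 through 12.7 to 17.1 CPM in sham and from 11.8 through 17.7 to 25.0 in medium (0.49 ± 0.16), with wide overlap. Kyat3, an aminotransferase that makes kynurenic acid, ran from 6.64 through 9.41 to 10.5 CPM in sham and from 8.60 through 11.8 to 16.2 in medium (0.42 ± 0.14). Vav1 ran from 4.16 to 6.82 CPM in low, above every sham library, and from 3.24 to 5.19 in high. Stk17b ran from 15.5 to 17.5 CPM in low and from 12.0 to 18.7 in high. Kyat3 ran from 6.84 to 9.19 CPM in low and from 8.00 to 14.7 in high.

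The rest of the 10 higher genes were Ankrd1, an ankyrin repeat protein of muscle (0.89 ± 0.28, at 0.762 CPM in sham), Myh7b, a myosin heavy chain (0.41 ± 0.13), Tmem243, a membrane protein (0.42 ± 0.14), Ptpn2, a tyrosine phosphatase (0.33 ± 0.11), Bcar3, a signalling adaptor (0.30 ± 0.10), and Atic, an enzyme of purine synthesis (0.24 ± 0.08). Without the 4 libraries highest in ribosomal protein transcripts, Myh7b stood at 0.27, Ptpn2 at 0.20 and Atic at 0.13.

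Transcripts of projection neurons stood slightly higher in medium. Since Ppp1r1b chose the libraries, this is a description with no test. Of 19 transcripts shared by both pathways 18 were above sham (median 0.21), among them Ppp1r1b (0.30 ± 0.21), Rasd2, a striatal small GTPase (0.29 ± 0.17), Gng7, a G protein subunit (0.27 ± 0.17), and Scn4b, a sodium channel subunit (0.35 ± 0.22). All 6 indirect pathway transcripts were above sham (median 0.22), with Drd2 at 0.20 ± 0.18, Adora2a (adenosine receptor) at 0.24 ± 0.22 and Penk (enkephalin precursor) at 0.27 ± 0.22. Of 6 direct pathway transcripts 4 were above (median 0.10), with Drd1 at 0.18 ± 0.19 and Tac1 (tachykinin precursor) at 0.30 ± 0.24, while Pdyn (dynorphin precursor) stood at -0.01 ± 0.16. The shared list had its lowest sham mean, 8.70 log2 CPM, in sham 48. Its median was 0.07 without sham 34 and sham 48, and the medians of the direct and indirect lists were then 0.01 and 0.13. Without the 4 libraries highest in ribosomal protein transcripts (medium 8, medium 41, sham 48 and sham 49) the direct list turned to -0.07 and the indirect list stood at 0.05. With all 30 striatal libraries, sham 17 among them, the shared list had a median of 0.40.

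Penk ran from 1196 through 1510 to 1909 CPM in sham and from 1266 through 1544 to 3502 CPM in medium, where medium 41 was the highest and medium 8 next. Tac1 ran from 238 through 305 to 369 CPM in sham and from 241 through 332 to 702 in medium, again highest in medium 41. The groups overlapped for both, and without the 4 libraries highest in ribosomal protein transcripts Penk stood at -0.10 and Tac1 at -0.01.

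Transcripts of the septum, pallidum and thalamus stood lower in medium, and their level in sham was set by sham 48 and sham 34. Library means over the list (17 of 18 written members tested) ran from 2.34 to 2.86 log2 CPM in medium and from 2.61 to 2.96 in 5 sham libraries, with 3.66 in sham 34 and 5.30 in sham 48. Of the 17 members 15 were lower, 11 of them at an unadjusted p under 0.05 where 1.75% of all genes were, and 0 after adjustment. The median was -1.15. Calb2, the calcium buffer calretinin, ran from 2.98 through 6.18 to 85.6 CPM in sham and from 1.92 through 4.35 to 8.60 CPM in medium (-1.90 ± 0.56). Prkcd, a protein kinase C abundant in thalamus, ran from 28.7 through 41.5 to 327 CPM in sham and from 28.1 through 38.1 to 48.2 in medium (-1.15 ± 0.37). In both genes the highest sham library was sham 48, and the others overlapped the medium range except for sham 34 and, for Calb2, sham 49.

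The list median went to -0.35 without sham 48 and to -0.07 without sham 34 and sham 48, where Prkcd stood at 0.02 and Calb2 at -0.38. Within runs of 15 rat numbers, an inferred stand-in for the cohorts, the difference of library means was -0.22, -0.35, -0.47 and -1.45 in runs 1 to 4. It was largest in the run that holds sham 48. Run 2 holds 1 sham library, and the difference in run 3 came from sham 34 (3.66). The other sham library of run 3, sham 32 (2.61), lay between medium 41 (2.48) and medium 40 (2.84). In low and high libraries, against the same sham libraries, the list medians were -0.71 and -0.92.

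**Figure D3:**
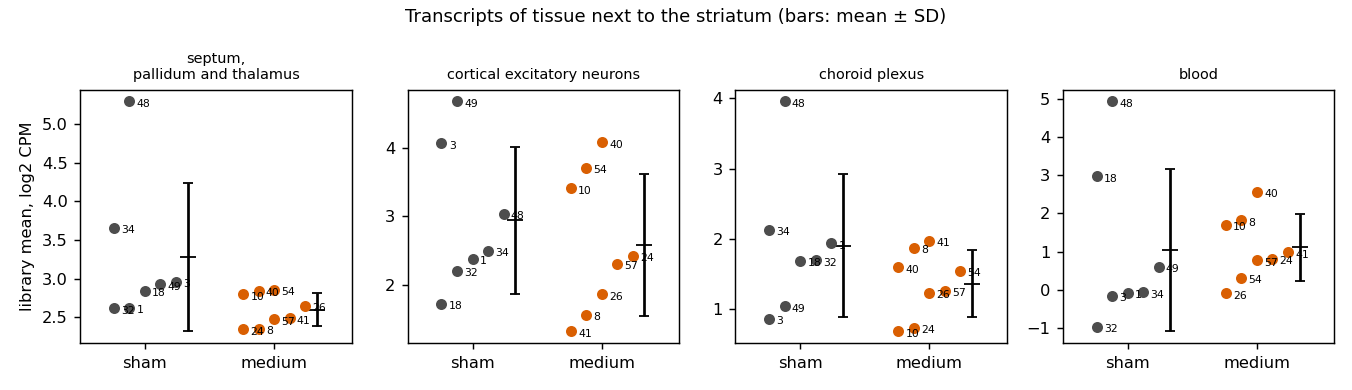
Mean log2 CPM of each library over the lists for septum, pallidum and thalamus, cortical excitatory neurons, choroid plexus and blood, in sham and medium, numbered by rat, with bars for mean ± SD. Sham 48 is the highest library for septum, pallidum and thalamus (5.30), choroid plexus (3.96) and blood (4.93), while cortical transcripts range widely in both groups.

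Sham 48 was also the highest library for choroid plexus and blood. Of 16 choroid plexus transcripts written, 7 passed the filter on low counts, 7 were lower, where 44.9% of all genes were, and 2 had an unadjusted p under 0.05, where 1.75% of all genes were lower (median -0.75). Ttr (24856), transthyretin, which carries thyroid hormone in cerebrospinal fluid, stood at 969 CPM in sham 48 and between 1.93 and 37.5 CPM in the other 6 sham libraries, and medium libraries ran from 1.41 to 33.2 CPM. The fitted difference of -3.33 ± 0.96 therefore went to -0.11 without sham 48, and Clic6, a chloride channel protein, went from -1.23 ± 0.52 to -0.53. The haemoglobin transcript Hbb stood at 92.7 CPM in sham 48 and 25.7 in sham 18, with the other 5 sham libraries at 0.157 to 2.52 and the medium libraries at 1.03 to 15.9 CPM. All 4 tested blood transcripts were lower (median -1.57), and the median was 0.17 without sham 48. The haemoglobin genes are near-identical copies whose reads cannot be assigned with certainty.

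Cortical excitatory transcripts ranged widely within both groups. Library means ran from 1.72 in sham 18 to 4.68 in sham 49, with 4.07 in sham 3, and from 1.32 in medium 41 to 4.08 in medium 40. Of 12 members 10 were lower (median -0.51), 0 at an unadjusted p under 0.05, and the median was 0.10 without sham 49. Slc30a3, the zinc transporter of cortical synaptic vesicles, ran from 0.733 to 30.2 CPM in sham and from 0.476 to 7.03 in medium (-1.95 ± 1.01), and turned to 0.31 in limma-voom.

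Dlk1 and Calcr were named as lower against the mean of low and high, and Oxt as lower against high, with no gene called in either contrast. These genes were uneven across the sham libraries too. Dlk1, a Notch ligand family protein, ran from 1.33 through 4.31 to 11.7 CPM in sham and from 0.169 through 1.42 to 3.81 in medium (-1.70 ± 0.54, and -1.42 without sham 34 and sham 48). The calcitonin receptor Calcr stood at 7.71 CPM in sham 34, its highest sham library, and at 0 to 1.71 CPM in medium (-1.97 ± 0.74). Oxt, the oxytocin precursor, stood at 18 CPM in sham 34 and at no more than 0.957 CPM in the other sham libraries, with 0 to 1.37 in medium. The low and high groups also held high libraries, with Oxt at 18.4 CPM in high 27 and 17.1 in high 59, Calcr at 8.95 in high 59 and Dlk1 at 10.1 in low 22. They held low ones as well, within or below the medium range. Dlk1 stood at 0.135 CPM in high 28, Calcr at 0.131 in high 14 and Oxt at 0.131 in high 43.

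Among striatal interneurons, 2 of 11 tested transcripts were lower at an unadjusted p under 0.05, where 1.75% of all genes were, and the list median was -0.08, or 0.03 without sham 18. Pvalb, the calcium buffer parvalbumin of fast-spiking interneurons and of pallidal neurons, stood at 91.0 CPM in sham 48, 70.1 in sham 34 and 48 in sham 49, at 9.73 to 30.9 in the other 4 sham libraries and at 5.46 to 24.5 CPM in medium. Its difference of -1.36 ± 0.44 went to -0.57 without sham 34 and sham 48. Vip, a neuropeptide precursor, went from -2.27 ± 0.90 to -1.28. Chat and Slc5a7, of cholinergic neurons, stood at -0.22 ± 0.32 and -0.23 ± 0.28, and Sst and Npy, of somatostatin neurons, at 0.07 ± 0.25 and 0.19 ± 0.25.

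Transcripts of microglia, vessels and astrocytes were mostly a little higher in medium, but no member had an unadjusted p under 0.05. All 22 microglial transcripts were higher (median 0.18), as were all 21 endothelial (0.19) and all 14 mural cell transcripts tested (0.24), and 19 of 20 astrocyte transcripts (0.15), where 55.1% of all genes were above 0. The other loadings also stood above the same sham libraries. In the same order the medians were 0.24, 0.31, 0.42 and 0.35 in low and 0.16, 0.13, 0.19 and 0.16 in high. Medium stood at -0.06, -0.14, -0.13 and -0.19 against low, and at 0.05, 0.06, 0.02 and 0.01 against high. In microglia the complement subunit C1qc stood at 0.36 ± 0.23 and the protease Ctss at 0.31 ± 0.16. In endothelial cells the organic anion transporter Slco1a4 stood at 0.31 ± 0.16 and the junction protein Esam at 0.26 ± 0.14. In mural cells the filament protein Des stood at 0.44 ± 0.24, smooth muscle actin Acta2 at 0.37 ± 0.22 and the signalling regulator Rgs5 at 0.28 ± 0.23. Among astrocyte transcripts, the glutamate transporter Slc1a3 stood at 0.24 ± 0.17, the gap junction protein Gja1 at 0.22 ± 0.14 and the filament protein Gfap at -0.01 ± 0.22.

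These lists were lowest in sham 18 among sham libraries, except the endothelial list, which was lowest in sham 48. Microglial means ran from 4.31 in sham 18 through 4.94 to 5.12 log2 CPM in sham and from 4.85 through 5.11 to 5.34 in medium. Mural means ran from 3.66 in sham 18 through 4.17 to 4.60 in sham and from 3.98 in medium 41 through 4.36 to 4.85 in medium 24. The groups overlapped in each list, and without sham 18 the medians were 0.07 for astrocytes and 0.10 for microglia. The endothelial and mural medians were lowest without medium 24, at 0.14 and 0.18, when any 1 library was left out. By runs of 15 rat numbers the microglial difference was 0.09, 0.98, -0.02 and -0.01, and the mural difference -0.16, 1.14, -0.18 and 0.45, with sham 18 the only sham library in the run with the largest values.

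Oligodendrocyte transcripts showed no such lean. Of 21 myelin transcripts 8 were higher and 13 lower (median -0.03), with the myelin protein Mbp at 0.03 ± 0.17 and the transcription factor Sox10 at -0.13 ± 0.17. Precursor transcripts had 7 of 12 higher (median 0.03). Ependymal transcripts had 5 of 9 higher (median 0.02), and the median was -0.28 without medium 41. Perivascular macrophages were split, with 4 of 8 higher, and fibroblast transcripts had 11 of 15 higher (median 0.07).

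**Figure D4:**
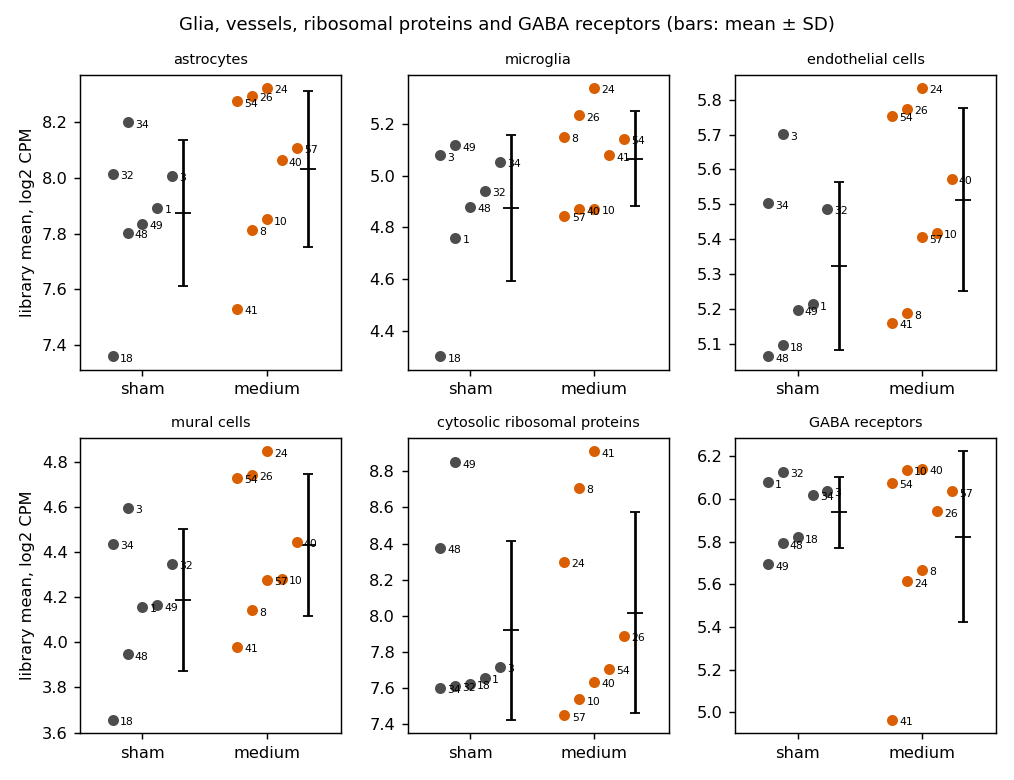
Mean log2 CPM of each library over the lists for astrocytes, microglia, endothelial cells, mural cells, cytosolic ribosomal proteins and GABA receptors, in sham and medium, numbered by rat, with bars for mean ± SD. Sham 18 lies lowest for astrocytes, microglia and mural cells, and medium 41 lies highest for ribosomal proteins (8.91) and lowest for GABA receptors (4.97).

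The 4 libraries highest in ribosomal protein transcripts were medium 8, medium 41, sham 48 and sham 49. Their means over the list were 8.71, 8.91, 8.38 and 8.85 log2 CPM, against 7.45 to 8.30 in the other 11 libraries. Medium 24, at 8.30, lay close below sham 48, and medium 26 came next at 7.89, so the 4 were not set apart by a clear gap. Values without these 4 libraries also leave out sham 48. Of 79 cytosolic ribosomal protein transcripts 76 were higher in medium (median 0.11), but the median was -0.05 without medium 41 and 0.32 without sham 49. Rplp1, a protein of the ribosomal stalk, stood at 0.22 ± 0.30. Nuclear-encoded respiratory chain transcripts (69 of 76 higher, median 0.07), mitochondrial ribosomal proteins (55 of 70, 0.05) and proteasome subunits (29 of 36, 0.05) also had most members above 0. Without medium 41 these medians were -0.08, -0.08 and -0.08 in the same order. Ribosomal protein genes have many processed pseudogenes, and the sources used here do not say how reads with several positions were counted.

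Receptor and channel lists had their lowest library mean in medium 41. For GABA receptors it was 4.97 log2 CPM, against 5.61 to 6.14 in the other medium libraries and 5.69 to 6.13 in sham. Of 14 members 10 were lower, with a median of -0.01. Ionotropic glutamate receptors had 9 of 15 lower (median -0.02). Potassium channel genes had 45 of 75 lower (median -0.09), 5 at an unadjusted p under 0.05, where 1.75% of all genes were, and the median was -0.03 without medium 41. Sodium channels had 7 of 12 lower (-0.04), and the median was 0.04 without medium 41. Among the potassium channels, Kcnc2 stood at -1.66 ± 0.50 and at -0.44 without sham 34 and sham 48, and Kcnh2 at -0.47 ± 0.14 and -0.19. Metabotropic glutamate receptors had 6 of 7 lower (median -0.15), where Grm2 stood at 45.7 CPM in sham 48 and 17.3 in sham 49, at 2.51 to 6.70 in the other sham libraries and at 1.49 to 4.98 in medium (-2.28 ± 0.68, and -1.31 without sham 48).

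Of 21 transcripts of synaptic vesicle release 15 were lower in medium (median -0.11), 3 of them at an unadjusted p under 0.05, where 1.75% of all genes were. The median was -0.04 without the 4 libraries highest in ribosomal protein transcripts. Syn2, a synapsin that tethers vesicles, ran from 131 through 173 to 199 CPM in sham and from 84.6 through 116 to 167 CPM in medium. The groups overlapped, and the difference was -0.50 ± 0.20 and -0.55 without sham 34 and sham 48. Sv2a, a vesicle glycoprotein, stood at -0.29 ± 0.11 and Syp, synaptophysin, at -0.39 ± 0.19, and these went to -0.17 and -0.23 without sham 34 and sham 48. Snap25, of the fusion complex, stood at -0.01 ± 0.10. In the postsynaptic density 12 of 16 were higher (median 0.03), with the scaffold Dlgap3 at 0.28 ± 0.13 and the calmodulin binding protein Nrgn at 0.39 ± 0.21. Opioid and cannabinoid transcripts had 7 of 9 lower (median -0.10), with the nociceptin precursor Pnoc at -1.12 ± 0.49 and the cannabinoid receptor Cnr1 at 0.61 ± 0.37, or 0.28 without medium 10. The list median was 0.01 without medium 41. Dopamine synthesis and breakdown had 5 of 7 higher (median 0.09), with the monoamine oxidase Maob at 0.24 ± 0.14.

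In the lists for hormone, stress and xenobiotic responses, medians ran from -0.05 to 0.15. Thyroid hormone transcripts had 10 of 15 higher (median 0.06), with the receptors Thra at 0.00 ± 0.11 and Thrb at 0.06 ± 0.21, the responsive genes Hr at -0.14 ± 0.21 and Klf9 at 0.17 ± 0.22, and the transporter Slco1c1 at 0.25 ± 0.13. Of 13 glucocorticoid response transcripts 12 were higher (median 0.15), 0 of these at an unadjusted p under 0.05, among them the kinase Sgk1 at 0.25 ± 0.23, while Cdkn1a was the lower member. Immediate early genes had 15 of 24 lower (median -0.05). Btg2, an antiproliferative gene of this class, stood at 48.6 CPM in sham 49 and differed by -0.76 ± 0.32, or -0.33 without that library.

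Circadian clock transcripts had 11 of 17 higher (median 0.05). Nr1d2 (259241), the repressor REV-ERB beta, ran from 105 through 119 to 145 CPM in sham and from 109 through 147 to 167 CPM in medium (0.27 ± 0.10), and Bmal1, which it represses, stood at -0.14 ± 0.13. Transcripts of the endoplasmic reticulum stress and amino acid response had 11 of 15 higher (median 0.06), led by Cebpg and the chaperone Dnajb9 (0.16 ± 0.08), while the transcription factor Atf4 stood at -0.13 ± 0.18. Xenobiotic receptors and enzymes had 9 of 16 lower (median -0.01), with the receptor Ahr at -0.36 ± 0.25 and the epoxide hydrolase Ephx1 at 0.29 ± 0.16. Cyp1b1, a target of that receptor, had 31 reads in all medium and 23 in all sham libraries and was not tested. Antioxidant transcripts had 12 of 18 higher (median 0.03), with their regulator Nfe2l2 at 0.23 ± 0.11. Interferon and inflammation transcripts had 19 of 24 higher (median 0.12, and 0.06 without sham 18). The intracellular calcium channels Itpr1 and Ryr2 stood at 0.27 ± 0.22 and 0.07 ± 0.40.

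**Figure D5:**
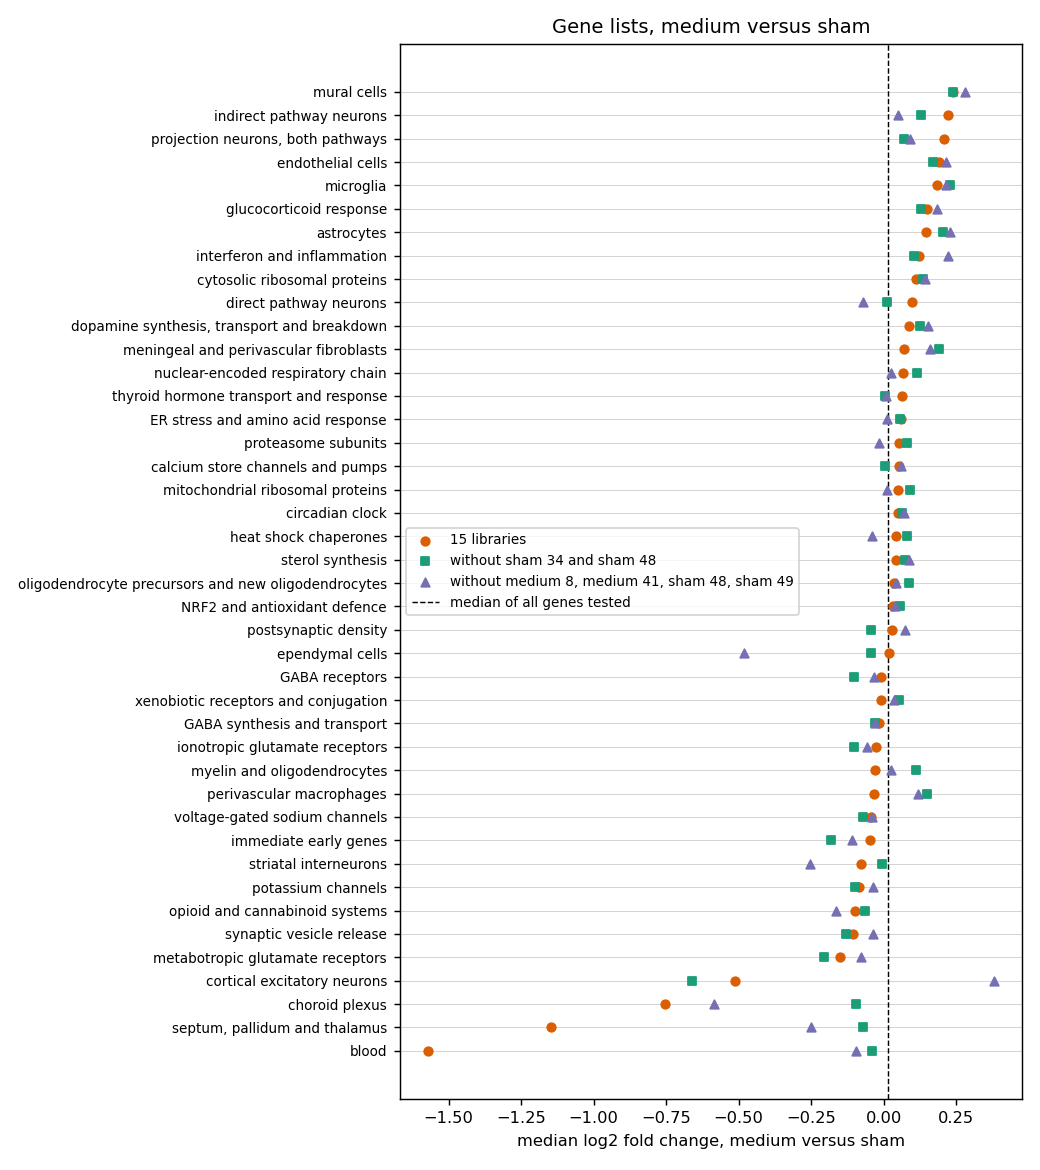
Median log2 fold change of medium over sham in each of the 42 gene lists, with all 15 libraries (circles), without sham 34 and sham 48 (squares) and without medium 8, medium 41, sham 48 and sham 49 (triangles), with the median of all genes as a dashed line. The lists for septum, pallidum and thalamus, choroid plexus and blood move from -1.15, -0.75 and -1.57 to near 0 without sham 34 and sham 48, and most other lists stay within 0.25 of 0. Without medium 8, medium 41, sham 48 and sham 49 these 3 lists stand at -0.25, -0.58 and -0.09.

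Medium was also set against the other loadings within the same fit; the sham libraries do not enter these differences but do enter the scaling, the filter and the estimate of spread. Against low, edgeR called 0 genes (0%), with 274 higher (2.24%) and 300 lower (2.45%) at an unadjusted p under 0.05. Kyat3 (0.63 ± 0.16) and the translation initiation factor Eif1a (0.40 ± 0.10) led the higher genes, and Ogfod3, an oxygenase family member (-0.57 ± 0.15), and Sh2d3c, a signalling adaptor (-0.43 ± 0.12), were among the lower. Against high, edgeR called 0 genes (0%), with 42 higher (0.343%) and 89 lower (0.727%). Utp18, a ribosome biogenesis factor, led the higher genes at 0.35, and Wdr6, of which medium libraries held 145 ± 15 CPM against 180 ± 27 in high and 175 ± 14 in sham (SD, n = 8, 7 and 7), stood at -0.31. Against the mean of low and high, edgeR called 0 genes (0%), with 131 higher (1.07%) and 148 lower (1.21%). Against low, the astrocyte list had a median of -0.19, with 1 of 20 members at an unadjusted p under 0.05 in either direction. The myelin list had a median of -0.36, with 8 of 21, where 574 of all 12243 genes had such a p. Against sham, the myelin list stood at 0.35 in low and -0.03 in medium, and the astrocyte list at 0.35 and 0.15. Gfap stood at -0.49 ± 0.24 and Mbp at -0.43 ± 0.19 in medium against low, where low libraries averaged 1026 and 16284 CPM and medium libraries 733 and 12081 CPM.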

How the data were processed

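RNA from striatal and cerebellar punches was sequenced, 1 library per rat and region. The deposited striatal table holds raw read counts per gene for 30 libraries (14231 genes, 14163 with a symbol), which the authors made with FastQC and HISAT2 on rn6, per the submitters' processing notes; the sources used here name no counting tool, strand setting or annotation. Every gene in the table has 10 reads or more over the 30 libraries. Replicate numbers in the labels were read as rat numbers.

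Libraries with Ppp1r1b at 500 raw CPM or more were kept (27 of 30). Counts were filtered with filterByExpr, scaled by TMM and fitted with edgeR 4.0.16 (quasi-likelihood, robust) in R 4.3.3 over the 4 groups together, since they share 1 estimate of spread. p-values were adjusted by Benjamini-Hochberg over all 12243 genes, with calls at 0.05. CPM are TMM-scaled, and log2 CPM use a prior count of 2. Alternatives used DESeq2 1.42.0, limma 3.58.1, other filters and scaling, left-out libraries, and runs of 15 rat numbers as a block, an inferred stand-in for the cohorts. The fit was tested on simulated data.

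The libraries, the 42 gene lists and the tests were chosen with earlier results of these data known. Named genes are the 10 per direction with the smallest p against sham; in each list, up to 3 per direction by p plus the most abundant member; in other contrasts, 3 per direction by p; and a set of striatal, thyroid, clock, calcium channel and xenobiotic genes. Men1, Nrip3, Chat and Sst lie outside this rule and were chosen after their values were seen.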

Additional observations from a re-analysis of the deposited data

Results flagged for a closer look

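In groups of 7 or 8 libraries, a highest or lowest library was set against the others by Dixon's ratio, its gap to the nearest library over the whole range of the group, with 95% critical values of 0.568 for 7 and 0.526 for 8. This was done in 84 groups of list means and 206 groups of gene values, and 20 stood out. Chance flags about 1 in 20 groups.

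Sham 48 accounted for 6 of these, as the highest sham library for the septum, pallidum and thalamus list (0.611), the choroid plexus list (0.591), Ntng1 (0.581), Kcnip4 (0.646), Cdkn1a (0.600) and Prkcd (0.588). Medium 41 accounted for 5, as the lowest medium library for the GABA receptor list (0.551), the opioid and cannabinoid list (0.558), Rgs5 (0.562) and Klf9 (0.591), and as the highest for Atf4 (0.591).

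Sham 18 was the lowest sham library for the mural cell genes Des (0.577) and Rgs5 (0.651). Sham 34 was the lowest for Adora2a (0.680) and the highest for Oxt (0.640). Sham 49 was the highest for the xenobiotic list (0.612). Among medium libraries, medium 10 was the highest for Bcar3 (0.536) and the lowest for Nfe2l2 (0.606), medium 40 the highest for Grm2 (0.577) and medium 54 the highest for Oxt (0.548). The part of handling, dissection or RNA quality in these values was not tested.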

How the results depend on the processing

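No paired analysis was possible because medium and sham rats share no replicate number. Of the alternatives for the counts of called genes 103 kept the count, and DESeq2 called 2 genes (Frem3 and Ntng1) between medium and sham. The counts at an unadjusted p under 0.05 moved more: 318 higher and 360 lower in limma-voom, 132 and 311 with no filter, 113 and 340 with all 30 libraries, and 59 to 125 higher and 106 to 284 lower with any 1 library left out, where leaving out sham 48 gave the 106. Alternatives added after seeing the data left 84 higher and 67 lower without sham 34 and sham 48, and 87 and 116 without medium 8, medium 41, sham 48 and sham 49. Single genes kept their direction in 2707 comparisons and changed sign in 67, spread over 17 genes; in 57 of these the reported value was no larger than its standard error. In limma-voom, Hbb (1.02), Slc30a3 (0.31), Penk (-0.073), Prr5l (0.054), Gfap (0.22), Sox10 (0.0041), Snap25 (0.011), Thra (-0.046), Hr (0.027) and Atf4 (0.072) changed sign. Without sham 34 and sham 48, Prkcd (0.015), Ttr (0.13), Gfap (0.27), Thra (-0.033), Thrb (-0.13), Atf4 (0.018) and Ryr2 (-0.0077) did. Without the 4 libraries highest in ribosomal protein transcripts, Penk (-0.10), Tac1 (-0.010), Gfap (0.18) and Atf4 (0.060) did. With all 30 libraries, Pdyn (0.17), Snap25 (0.0096) and Ryr2 (-0.074) did, and with no filter Pdyn (0.0017). In the difference of means behind the exact permutation test, Hbb (0.19), Gfap (0.0020) and Ryr2 (-0.026) did. With any 1 library left out, Hbb ran from -1.93 to 0.17, Atf4 from -0.22 to 0.0065, Gfap from -0.15 to 0.12, Mbp from -0.076 to 0.15, Pdyn from -0.15 to 0.067, Ryr2 from -0.093 to 0.22, Snap25 from -0.063 to 0.052, Thra from -0.051 to 0.079 and Thrb from -0.057 to 0.12. The median changed sign with 1 library left out in 23 of 42 lists. The cause was not tested. Low counts limit Frem3, Oxt, Calcr and Ankrd1, where a few reads per library set the value.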
